A study of Mus musculus with 6 samples.

Results

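The fatty acid desaturases and elongases were followed through 10 mouse genes, Scd1, Scd2, Scd3, Fads1, Fads2, Fads3, Elovl1, Elovl3, Elovl5 and Elovl6. Every probe set whose platform gene symbol is 1 of these names was taken, which gave 20 of the 22626 probe sets tested. The arrays held brown adipose tissue of mice of a mixed C57BL6 and 129 background that were 3.5 months old and had received a high fat diet for 3 months. The 3 control arrays came from YY1flox/flox mice, and the 3 YY1bKO arrays from YY1flox/flox mice that also carried Ucp1Cre. Floxed Yy1 alleles and the diet were thus common to both groups. Ucp1Cre acts in cells that express Ucp1, so the other cells of the tissue keep their Yy1, a gene for the transcription factor Yin Yang 1. The labels number the samples of a group without naming animals, so the spread that enters the p-values may be technical. In whole tissue, fewer cells of a type and less RNA per cell cannot be told apart.

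Desaturases place double bonds in fatty acyl chains, and elongases add carbon units to them in the endoplasmic reticulum. Stearoyl-CoA desaturases (the Scd genes) make monounsaturated from saturated chains, and Fads1 and Fads2 act in turn with Elovl5 on the essential polyunsaturated fatty acids. Elovl6 lengthens palmitate, the product of fatty acid synthase, whereas Elovl1 and Elovl3 make very long saturated and monounsaturated chains, Elovl3 being known in brown fat as a gene induced by cold. Sterol regulatory element-binding proteins and liver X receptors are known activators of several of these genes in liver.

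Scd3 and Elovl1 were the members with a raised transcript whose promoters could be read, and their windows are printed beside that of Elovl5, which was not called. A window runs from 250 bases before to 50 bases after a RefSeq gene start of GRCm38.p6, and 6 of the 10 genes had one or more, 7 windows in all. Scd1, Scd2, Fads1 and Elovl3 are named only. Capitals mark every match, on either strand, to TCACNCCA (a sterol regulatory element core), CCAAT (the NF-Y box), CACGTG (the E box), CCATNTT (a Yin Yang 1 core) or the liver X receptor element (AGGTCA repeated after a gap of 4 bases).
Scd3 chr19:44203038-44203337 (+ strand): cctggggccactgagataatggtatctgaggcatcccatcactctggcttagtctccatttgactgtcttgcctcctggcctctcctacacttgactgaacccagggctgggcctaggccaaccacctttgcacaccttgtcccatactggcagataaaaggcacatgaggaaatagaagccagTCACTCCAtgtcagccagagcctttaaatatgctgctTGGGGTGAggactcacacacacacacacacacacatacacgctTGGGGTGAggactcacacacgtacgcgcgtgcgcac
Elovl1, upstream window chr4:118427843-118428142 (+ strand): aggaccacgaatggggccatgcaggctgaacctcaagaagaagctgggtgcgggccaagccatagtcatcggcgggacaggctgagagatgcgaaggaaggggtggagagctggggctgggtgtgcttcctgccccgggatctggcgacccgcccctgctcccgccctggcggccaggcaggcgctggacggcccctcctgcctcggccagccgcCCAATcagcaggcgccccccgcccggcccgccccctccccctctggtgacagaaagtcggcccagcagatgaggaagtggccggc
Elovl1, downstream window chr4:118429451-118429750 (+ strand): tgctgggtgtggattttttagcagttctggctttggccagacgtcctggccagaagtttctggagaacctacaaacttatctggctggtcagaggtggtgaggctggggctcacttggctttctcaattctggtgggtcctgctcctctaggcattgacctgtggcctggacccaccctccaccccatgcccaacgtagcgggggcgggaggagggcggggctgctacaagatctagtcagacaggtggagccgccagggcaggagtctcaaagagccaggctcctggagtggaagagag
Elovl5 chr9:77917115-77917414 (+ strand): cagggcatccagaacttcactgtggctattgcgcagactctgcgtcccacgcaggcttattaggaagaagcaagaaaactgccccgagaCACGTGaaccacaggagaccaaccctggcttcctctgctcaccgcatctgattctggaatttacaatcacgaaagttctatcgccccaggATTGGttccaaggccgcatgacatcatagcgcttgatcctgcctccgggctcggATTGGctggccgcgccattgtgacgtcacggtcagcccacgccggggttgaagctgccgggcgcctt
The Scd3 window held 3 matches to TCACNCCA, and 4.36% of all 32851 promoter windows held 1 or more. The share of windows with 3 was not counted. The matches began 66 and 29 bases before and 15 bases after the start, the last 2 in copies of the same stretch of letters. The upstream Elovl1 window held 1 CCAAT box and the downstream window no match, and Elovl5 held 2 CCAAT boxes and 1 E box. Fads3 held 2 CCAAT boxes, and Fads2 and Elovl6 had no match. CCAAT occurs in 37.4% and CACGTG in 7.15% of all windows. No member window matched CCATNTT, found in 16.1% of all windows, or the liver X receptor element, found in 0.0152%. A match describes letters only, and binding was not measured here.

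All 8 measured brown adipocyte markers lay above the median of all probe sets (log2 intensity 6.48). Ucp1 read 13.92 ± 0.06 in control and 13.78 ± 0.08 in YY1bKO arrays (SD, n = 3). Every measured marker of skeletal muscle, of endothelium and of adipocytes in general also lay above the median, so that position does not identify the tissue. Yy1 fell by 1.43 ± 0.11 on the log2 scale in its brightest probe set (SE, limma adjusted p = 8.87e-04), and all 3 YY1bKO arrays were lower than all 3 controls. Control replicate 2 stood apart on the second principal component, which held 34.0% of the variance. Its skeletal muscle markers summed to a linear intensity of 146245, against 33642 and 27355 in the other control arrays and 58281 to 76612 in the YY1bKO arrays. It was also the lowest control array for 13 of the 20 desaturase and elongase probe sets. YY1bKO replicate 2 was the lowest array of its own group for 12 of them. No share over all probe sets is given for these counts, and the part of muscle RNA in them was not tested. Values without control replicate 2 are given beside each result that turns on it, other than the muscle markers themselves.

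Over the family as a whole, transcripts of 4 genes were higher in YY1bKO tissue and none was lower. Scd3 rose by 2.22 and 2.16 on the log2 scale in its probe sets, both dim (1.66 and 1.45 with a pseudocount of 16), Elovl3 2.21-fold, Fads1 1.89-fold and Elovl1 1.43-fold in its brightest probe set, while Scd1, Scd2, Fads2, Fads3, Elovl5 and Elovl6 were not called. In limma's moderated test, with p-values adjusted over all 22626 probe sets and a call at an adjusted p under 0.05, 5 of the 20 probe sets were higher and 0 lower. Over all probe sets 8.83% were called higher and 7.16% lower. Without control replicate 2 there were 5 higher and 1 lower, a Fads3 probe set, and without any 1 of the YY1bKO arrays 3 higher, those of Scd3 and Fads1. At an unadjusted p under 0.05 the 2 further Elovl1 probe sets were also higher and no member was lower. The share of all probe sets that pass this looser threshold is not given here, so the count adds no support. The 3 YY1bKO values lay above the 3 control values in 6 of the 20 probe sets and below them in 0, where 21.1% and 15.1% of all probe sets did so. The median log2 fold change was 0.17 over the 20 probe sets and 0.03 over all probe sets. By size of change the Scd3 probe sets ranked 40 and 45 among all 22626. The plot of log2 intensities by array shows each of these values.

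**Figure D1:**
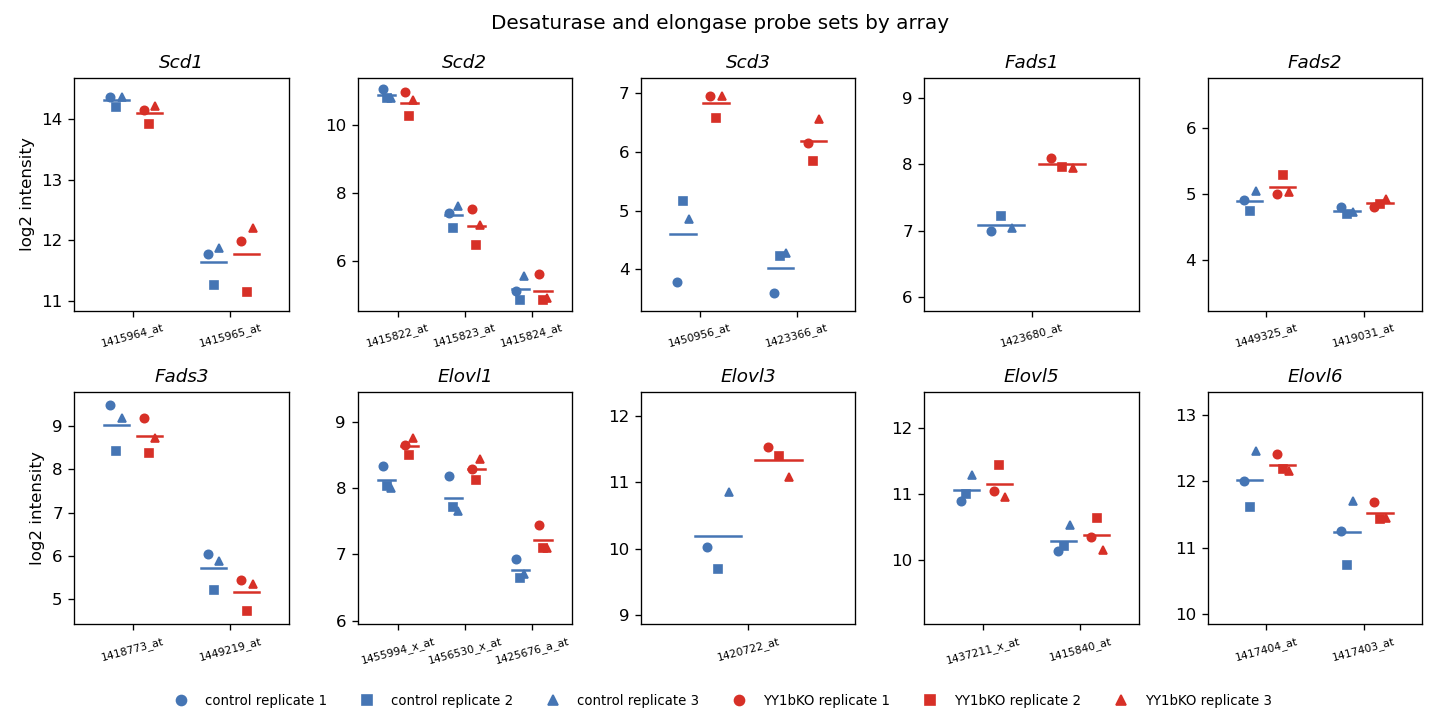
Log2 intensity of each of the 20 probe sets (horizontal axis: probe set identifier, 1 panel for each gene) on the 3 control arrays (blue) and the 3 YY1bKO arrays (red), with horizontal bars at the group means, and with a vertical axis of its own in each panel. The groups part for both Scd3 probe sets, for Fads1, for Elovl3 and for 2 of the 3 Elovl1 probe sets.

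Scd3, a stearoyl-CoA desaturase that in mice prefers palmitoyl-CoA and is known from skin and the Harderian gland, moved the most. Its probe set 1450956_at read 3.79, 5.17 and 4.86 on the control arrays and 6.95, 6.58 and 6.95 on the YY1bKO arrays. The lowest YY1bKO array thus lay 1 log2 unit or more above the highest control array. The group means were 4.60 ± 0.72 and 6.83 ± 0.21 (SD, n = 3), and their difference was 2.22 ± 0.34 on the log2 scale (SE, limma adjusted p = 0.00801). The other probe set, 1423366_at, read 3.60, 4.22 and 4.27 on control and 6.15, 5.85 and 6.56 on YY1bKO arrays. Again no array of a group reached into the other, and the change was 2.16 ± 0.24 (SE, adjusted p = 0.00286). Both probe sets are dim, meaning that their mean over the 6 arrays does not exceed the median over the whole array. Their control arrays lay between 12.1 and 35.9 on the linear scale, where the size of a fold depends on the background. With a pseudocount of 16 the changes were 1.66 (adjusted p = 0.00674) and 1.45 (0.00471). Without control replicate 1 they were 1.82 (0.00724) and 1.94 (0.0108), and without control replicate 2 they were 2.51 (0.0024) and 2.25 (0.0021).

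Scd1, the main stearoyl-CoA desaturase of adipose tissue and liver, showed no called difference. Its probe set 1415964_at read 14.37, 14.21 and 14.36 on control and 14.16, 13.93 and 14.21 on YY1bKO arrays, near the top of the intensity range. The groups overlapped, and the log2 fold change of -0.22 had a 95% interval from -0.46 to 0.03 (adjusted p = 0.219). The less bright 1415965_at read 11.78, 11.27 and 11.87 on control and 11.98, 11.14 and 12.21 on YY1bKO arrays. Its change of 0.14 went the other way, with an interval from -0.56 to 0.83 (adjusted p = 0.807). In both probe sets replicate 2 was the lowest array of its group.

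Scd2, a stearoyl-CoA desaturase prominent in brain, gave 11.07, 10.78 and 10.81 on control and 10.96, 10.25 and 10.73 on YY1bKO arrays in its brightest probe set, 1415822_at. YY1bKO replicate 2 was the lowest of the 6, and the ranges overlapped. The change was -0.24, with a 95% interval from -0.68 to 0.20 (adjusted p = 0.442). The other probe sets gave -0.33 (interval -0.999 to 0.35) and, at dim intensities, -0.05 (interval -0.64 to 0.55). Scd1, Scd2 and Scd3 lie side by side on chromosome 19, and near-identical copies can share probes. The probe sequences were not used here, so how far the Scd probe sets cross-hybridise was not tested. None of the 5 probe sets of Scd1 and Scd2 was called with those of Scd3, by limma or at an unadjusted p under 0.05. On the linear scale Scd3 1450956_at had means of 26.2 in control and 115 in YY1bKO arrays. A change of that size is small beside control means of 20407 for Scd1 1415964_at and 1900 for Scd2 1415822_at. The lack of calls in these bright probe sets is therefore not read as a sign of probe specificity. Within arrays, the Scd1 effect minus the Scd3 effect was -2.44 ± 0.46 (SE, n = 3 per group, exact permutation p = 0.1, two-sided), and the groups did not overlap. With a pseudocount of 16 it was -1.87. It sets a Scd1 probe set that holds the highest intensity of all arrays (21219 on the linear scale), whose saturation was not tested, against a dim Scd3 probe set, so its size is uncertain at both ends. Scd1 and Scd2 differed in effect by 0.02 ± 0.16 (exact permutation p = 0.9).

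Fads1, the desaturase that makes arachidonic acid from its immediate precursor, had the smallest spread among the members that rose. Its single probe set read 6.999, 7.22 and 7.03 on control and 8.09, 7.96 and 7.94 on YY1bKO arrays. All 3 YY1bKO arrays were above all 3 controls, by more than the whole range of either group. The means were 7.08 ± 0.12 and 7.997 ± 0.08 (SD, n = 3), which differ by 0.91 ± 0.09 (SE, limma adjusted p = 0.00229). Without control replicate 2 the change was 0.98 (adjusted p = 0.001).

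Fads2, which performs the first desaturation of essential fatty acids ahead of Elovl5 and Fads1, was dim in both probe sets. Its probe set 1449325_at read 4.90, 4.75 and 5.04 on control and 4.9975, 5.29 and 5.04 on YY1bKO arrays, an overlap. The change was 0.21, with a 95% interval from -0.07 to 0.49 (adjusted p = 0.279), and the other probe set gave 0.11 (interval -0.07 to 0.30). Both lie among the 6 dim probe sets of the family. The measured Fads1 effect minus the Fads2 effect was 0.70 ± 0.19 (SE, exact permutation p = 0.1, n = 3 per group). Since the Fads2 probe set was dim on average over the arrays, at 26.8 to 39.0 on the linear scale, a change of Fads2 may have gone unmeasured and no difference between the genes is read from this value.

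Fads3, a desaturase of sphingoid bases, leaned the other way without being called. The brighter 1418773_at read 9.50, 8.42 and 9.19 on control and 9.19, 8.37 and 8.74 on YY1bKO arrays. Replicate 2 was the lowest of each group, and the groups overlapped. Its change was -0.27, with a 95% interval from -1.004 to 0.47 (adjusted p = 0.621). The dim 1449219_at gave -0.55 (interval -1.18 to 0.09, adjusted p = 0.225), from 6.04, 5.21 and 5.88 on control and 5.44, 4.72 and 5.34 on YY1bKO arrays. Without control replicate 2 this probe set was called lower, at -0.80 (adjusted p = 0.0361), whereas the brighter one was not, at -0.58 (adjusted p = 0.118). The Fads1 effect exceeded that of Fads3 by 1.18 ± 0.44 (SE, exact permutation p = 0.1, n = 3 per group).

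**Figure D2:**
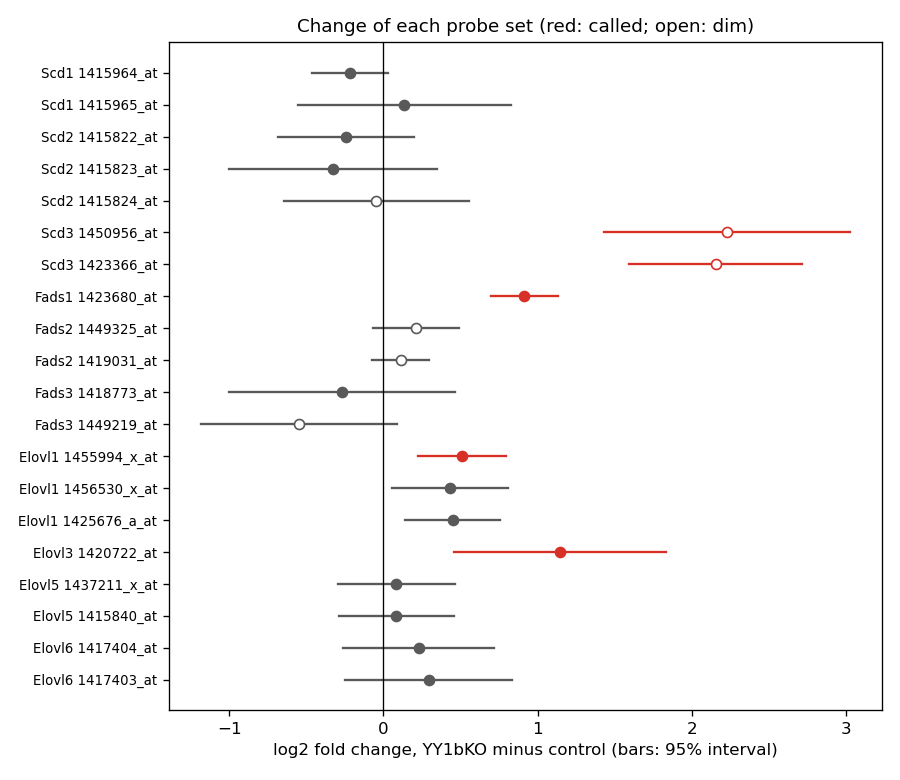
Log2 fold change, YY1bKO minus control, of the 20 probe sets (points) with 95% intervals from limma (bars), red where called and open where the probe set is dim. Scd3, Fads1, Elovl3 and the brightest Elovl1 probe set stand to the right of 0. Of the 20 point estimates, which come from 10 genes, 14 are positive. The share over all probe sets is not given, so this count adds no support.

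Elovl3 read 10.02, 9.69 and 10.85 on control and 11.53, 11.39 and 11.07 on YY1bKO arrays. The control arrays were spread over more than 1 log2 unit, and control replicate 3 came close to the lowest YY1bKO array without reaching it. The means were 10.19 ± 0.60 and 11.33 ± 0.23 (SD, n = 3), 1.14 ± 0.29 apart (SE, limma adjusted p = 0.0399). The call was lost without control replicate 1 (adjusted p = 0.123) or YY1bKO replicate 1 (0.131), 2 (0.126) or 3 (0.082), and was kept without control replicate 2 (0.90, adjusted p = 0.0409). It was also lost with a pseudocount of 16 (adjusted p = 0.0537) and with trend and robust options (0.0558).

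Elovl1, which supplies very long chains to sphingolipids, had 3 probe sets that agreed in direction and size. The brightest, 1455994_x_at, read 8.33, 8.03 and 7.996 on control and 8.65, 8.49 and 8.75 on YY1bKO arrays, without overlap. The means differed by 0.51 ± 0.12 (SE, adjusted p = 0.0321). The change was 0.45 in 1425676_a_at (adjusted p = 0.0603), whose groups did not overlap, and 0.43 in 1456530_x_at (adjusted p = 0.119), whose groups did. The suffix x marks probe sets in which some probes may also match other transcripts. The mean over the 3 probe sets gave 0.46 (adjusted p over genes = 0.0448). The call of the brightest was lost without control replicate 3 (adjusted p = 0.0824) or YY1bKO replicate 1 (0.105), 2 (0.0628) or 3 (0.115), and the change is smaller than 1.5-fold.

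Elovl5, the elongase of polyunsaturated chains, gave the smallest changes of the 4 elongases among the members. Its probe set 1437211_x_at read 10.89, 11.01 and 11.30 on control and 11.05, 11.44 and 10.96 on YY1bKO arrays. The groups overlapped over most of their range. The change was 0.08 in each probe set, with a 95% interval from -0.30 to 0.46 in 1437211_x_at (adjusted p = 0.781).

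Elovl6, which links palmitate to stearate, read 12.005, 11.61 and 12.45 on control and 12.40, 12.18 and 12.16 on YY1bKO arrays in 1417404_at. Control replicate 2 was the lowest array and control replicate 3 the highest, so the YY1bKO range lay inside the control range. The changes were 0.23 (interval -0.26 to 0.72, adjusted p = 0.517) and 0.29 (interval -0.25 to 0.84, adjusted p = 0.442). Without control replicate 2 they were 0.02 and 0.05. Within arrays the Elovl3 effect exceeded the Elovl6 effect by 0.92 ± 0.15 (SE), without overlap between the groups (exact permutation p = 0.1, n = 3 per group). In all, 7 pairs of members were compared by their effects. The adjusted p was 0.175 for each of the 4 pairs at 0.1, the smallest p that 3 against 3 arrays allow, so no pair could pass. The effects of Elovl5 and Elovl6 differed by -0.14 ± 0.26 (exact permutation p = 0.5) and those of Elovl1 and Elovl3 by -0.63 ± 0.44 (exact permutation p = 0.2).

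An elongase carries out the first step of each elongation cycle, and separate enzymes complete it. Among 16 measured partners and further relatives of the family, taken by their brightest probe sets, 2 were higher and 2 lower, with a list median of 0.01. Over all 12393 genes 17.5% were called in the same fit, 9.72% as higher and 7.78% as lower, and the median was 0.04. Of the dehydratases of the third step, Hacd2 and Hacd3 rose and Hacd1 fell. Hacd2 read 11.67, 11.23 and 11.81 on control and 12.38, 12.36 and 12.31 on YY1bKO arrays. It rose in all 3 YY1bKO arrays by 0.78 ± 0.15 (SE, adjusted p = 0.0173), a call lost without YY1bKO replicate 1 (0.0677), 2 (0.0680) or 3 (0.0607). Hacd3 rose by 0.35 ± 0.09 (adjusted p = 0.0478), and of the 6 fits that left out an array its call was kept only in the fit without control replicate 2 (in the others adjusted p from 0.0618 to 0.152).

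Hacd1, the dehydratase known from muscle, read 9.77, 10.49 and 9.83 on control and 8.90, 9.16 and 8.80 on YY1bKO arrays. It fell by 1.08 ± 0.20 log2 units (SE, adjusted p = 0.0162), with replicate 2 the highest array of each group. The summed intensity of the muscle markers was also highest in replicate 2 of each group, although Myh1 and Myh2 were highest in replicate 1 among the YY1bKO arrays. The sums were higher in every YY1bKO array than in control replicates 1 and 3. The part of muscle RNA in the Hacd1 values was not tested. Without control replicate 2 the change was -0.85 (adjusted p = 0.00448), and the call was lost without YY1bKO replicate 1 (0.0651) or 3 (0.0675). Hacd4 was not called.

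Tecr, the reductase that closes the cycle, read lower in all 3 YY1bKO arrays (-0.38 ± 0.10, SE) and missed the threshold at an adjusted p of 0.0508, while without control replicate 2 it was called (-0.44, adjusted p = 0.0287). Hsd17b12, the ketoreductase of the second step, gave 0.23 (adjusted p = 0.291). Elovl4, an elongase of very long chains known from retina and skin, fell by 0.76 ± 0.10 from a dim control level of 4.22 ± 0.10 (SD, n = 3, adjusted p = 0.00492) in 1 of its 2 probe sets. With a pseudocount of 16 the Elovl4 change was -0.36 (adjusted p = 0.00965), so its size depends on the background. None of the 5 measured genes for cytochrome b5 and its reductases, which hand electrons to desaturases, was called by limma, and 1 of them, Cyb5r1, was higher at an unadjusted p under 0.05 (0.63, adjusted p = 0.118). Scd4 was not analysed here.

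**Figure D3:**
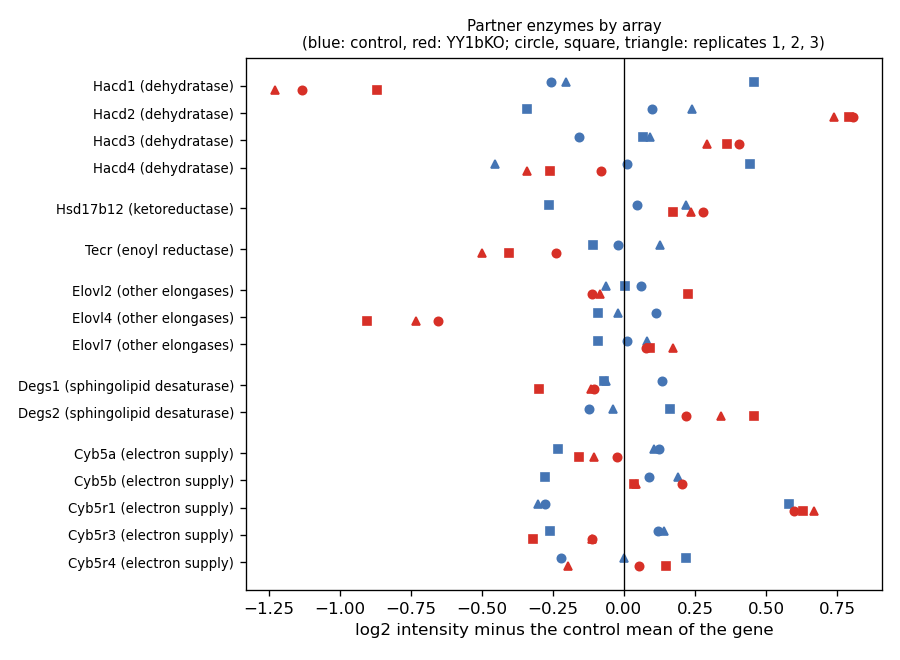
Log2 intensity on each array minus the control mean of the gene, for the 16 measured partner enzymes and relatives, with control arrays in blue and YY1bKO arrays in red (circle, square and triangle for replicates 1, 2 and 3). Hacd2 and Hacd3 lie to the right of the controls, and Hacd1 and Elovl4 to their left.

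Of 9 measured genes that supply saturated acyl chains, 0 were higher and 1 lower, beside 9.72% and 7.78% over all genes. The lower one was Acss2, which makes cytosolic acetyl-CoA from acetate (-0.95 ± 0.21, SE, adjusted p = 0.024). Its call was lost without control replicate 1 (0.0762) or any YY1bKO array (0.0614 to 0.0893). Fasn, the fatty acid synthase, gave 0.20 (adjusted p = 0.459) and Acaca, the acetyl-CoA carboxylase, 0.92 ± 0.36 (adjusted p = 0.144) with overlapping groups. The list median was 0.15.

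Regulators known to act on these genes gave 1 higher and 0 lower of 18, beside 9.72% and 7.78% over all genes, with a median of 0.05. Scap, which escorts sterol regulatory element-binding proteins to the Golgi, rose by 0.33 ± 0.08 (SE, adjusted p = 0.0297), a call lost without control replicate 1 (0.0903) or any YY1bKO array (0.096 to 0.102). Of those just short of a call, Rxra, the partner of liver X receptors, gave -0.40 ± 0.12 (adjusted p = 0.0650), Nfyc, a subunit of NF-Y, 0.24 ± 0.07 (0.0717) and Mlxipl, which encodes the carbohydrate response factor ChREBP, 0.52 ± 0.16 (0.0765). The groups did not overlap for these 3 genes. Among the 18 regulators they did not overlap for 4 genes that were higher and 2 that were lower. Over all 12393 genes the same held for 2822 higher and 1947 lower genes, so the lack of overlap does not single these genes out. The groups overlapped for Srebf1, at 0.47 ± 0.22 (adjusted p = 0.206), and for Ppara, a fatty acid receptor gene, at -0.43 ± 0.20 (adjusted p = 0.210).

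Enzymes that use or remodel the chains were described by 13 measured genes, with a median of -0.09. Of these 1 was higher and 2 lower, beside 9.72% and 7.78% over all genes. Dgat2, which completes triglycerides, fell by 0.83 ± 0.10 (SE, adjusted p = 0.00408). Cers2, the ceramide synthase for very long chains, fell by 0.46 ± 0.12 (adjusted p = 0.0407), and of the 6 fits that left out an array its call was kept only in the fit without control replicate 2 (in the others 0.0821 to 0.137). Lclat1, an acyltransferase that remodels cardiolipin, rose by 0.53 ± 0.09 (adjusted p = 0.00978). Among 11 genes of peroxisomal chain shortening, the thiolase gene Acaa1b rose by 1.02 ± 0.15 (adjusted p = 0.00699) and Hsd17b4, the bifunctional enzyme, fell by 0.51 ± 0.14 (adjusted p = 0.0497). The Hsd17b4 call was lost when any array other than control replicate 2 was left out (adjusted p from 0.119 to 0.148), and it was kept in only 5 of the 16 alternatives. The others that ended it were quantile normalization (0.0587), median centring (0.0512), the mean over probe sets (0.0510), a pseudocount of 16 (0.0526), the replicate block (0.0745) and the added fold of at least 1.5.

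The Scd, Fads and Elovl3 genes, 7 members in all, lie on chromosome 19 in 3 separate stretches, and Elovl1, Elovl5 and Elovl6 lie on chromosomes 4, 9 and 3. Within the Scd group Scd3 changed and its next measured neighbours on that side, Scd2 and Scd1, were not called. Within the Fads group Fads1 changed and Fads2 and Fads3 were not called. Of 20 measured genes that are no member and lie among the 3 nearest on either side of Scd3, Fads1, Elovl1 or Elovl3, 4 were higher and 1 lower, beside the 17.5% called over all genes. Fen1, a DNA repair nuclease gene next to Fads1, rose by 0.45 ± 0.10 (SE, adjusted p = 0.0267), Med8, a Mediator subunit gene next to Elovl1, by 0.39 ± 0.09 (adjusted p = 0.028), and Nolc1, a nucleolar protein gene next to Elovl3, by 0.65 ± 0.12 (adjusted p = 0.0141). Nfkb2, of the NF-kappa-B family, rose by 0.72 ± 0.13 (adjusted p = 0.0134) and St3gal3, a sialyltransferase, fell by 0.56 ± 0.11 (adjusted p = 0.0186). Each of these 5 calls was lost without certain single arrays. They were control replicate 1 or any YY1bKO array for Fen1 (adjusted p from 0.0694 to 0.0960), every array but control replicate 2 for Med8 (0.0668 to 0.104), control replicate 1 or YY1bKO replicate 2 or 3 for Nolc1 (0.0504 to 0.0601), control replicate 1 or YY1bKO replicate 3 for Nfkb2 (0.0519 and 0.0506), and YY1bKO replicate 1 or 3 for St3gal3 (0.0689 and 0.0675). No measured neighbour of Scd3 was called, but Cyp2c23, Cwf19l1 and Wnt8b among them were dim. Erlin1, which was not dim, gave 0.31 without overlap between the groups (adjusted p = 0.178).

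**Figure D4:**
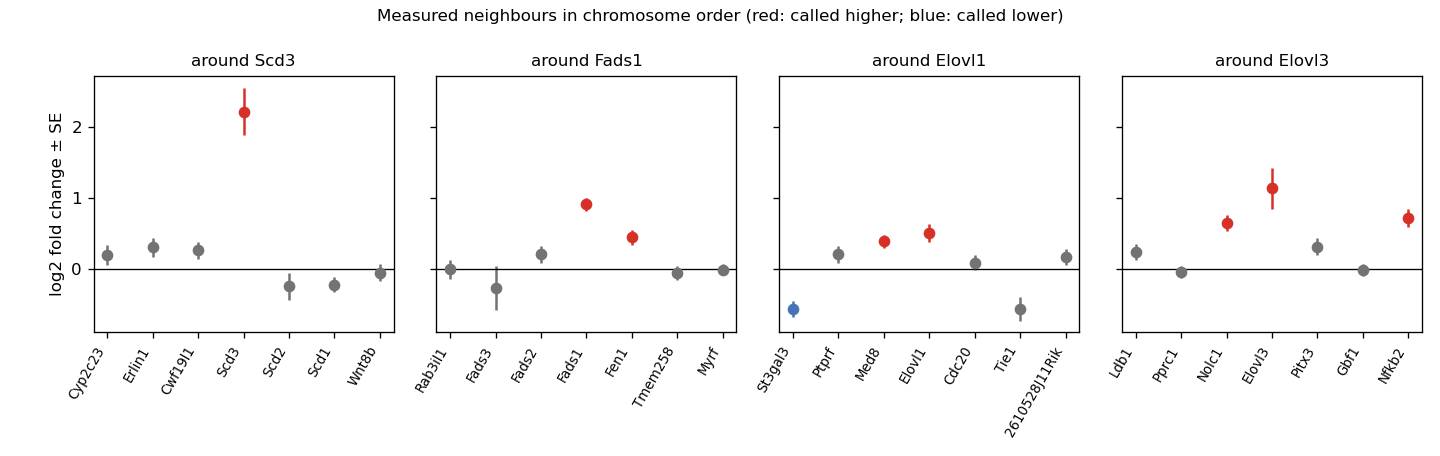
Log2 fold change ± SE, YY1bKO minus control, of Scd3, Fads1, Elovl1 and Elovl3 and of the 3 measured protein-coding genes on each side, in chromosome order and not to distance, with red for genes called higher and blue for lower. Scd3 stands at 2.22 and none of its neighbours is called, though Cyp2c23, Cwf19l1 and Wnt8b among them are dim. Fen1, Med8, Nolc1 and Nfkb2 are called higher near the other 3 genes, and St3gal3 lower.

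Markers of other cell types moved as follows, and their part in the results above was not tested. Over all genes 9.72% were called higher and 7.78% lower, and these shares stand beside each count of called markers. Of 7 endothelial markers 5 were lower and 0 higher, and their summed linear intensity ran from 3393 to 4132 in control and from 2340 to 2635 in YY1bKO arrays. Of the 5 measured markers shared by all adipocytes 0 were called by limma and 1, Cidec (-0.54), passed an unadjusted p under 0.05. Their sums were 37008 to 43032 in control and 35777 to 37842 in YY1bKO arrays. Scd3 and Elovl3 are also known from skin glands, and of 6 skin and sebaceous markers 1 was higher, Krt10 (1.71 ± 0.14, SE, adjusted p = 0.00124). Their sum ran from 8413 to 10076 in control and from 11033 to 11686 in YY1bKO arrays, most of it Mgst1. Mgst1 itself was not called (0.26, adjusted p = 0.118). Krt79, which was not dim, leaned the other way with overlapping groups (-0.15, adjusted p = 0.444). Krt5, Krt14 and Mc5r were dim and not called. Of 10 skeletal muscle markers 0 were called by limma, and 0 passed an unadjusted p under 0.05, with a median change of 0.44. Control replicate 2 widened the control spread, with a sum of 146245 against 33642 and 27355 in the other control arrays. The YY1bKO sums, 58281 to 76612, lay above those of control replicates 1 and 3. Muscle content therefore cannot be called unchanged, and no fit without control replicate 2 is given for these markers. Of the 8 brown adipocyte markers 2 were higher, and their sums were 50152 to 54943 in control and 48512 to 51124 in YY1bKO arrays. Of 8 white adipocyte markers 1 was higher and 1 lower, of 8 macrophage markers 0 and 1, and of 5 myelin markers 1 and 0.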

How the data were processed

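RNA of brown adipose tissue was measured on 6 Affymetrix arrays, 3 in each group, from 6 ug of total RNA. The deposited values are linear intensities per probe set, processed by the authors with RMA (background correction, quantile normalization and probe set summary) per the submitters' processing notes; the version of RMA is not stated there. After removal of 64 control probe sets, a linear model with group as the only term was fitted to log2 of the other 22626 (lmFit and eBayes of limma 3.58.1, R 4.3.3), with Benjamini-Hochberg adjustment over all of them and a call at 0.05. The fit was tested on simulated data. Gene symbols came from the platform annotation, where 20380 probe sets have 1 symbol, 691 several and 1555 none. Counts over gene lists use the brightest probe set of each gene (12393 genes). Pairs of members were compared by two-sided exact permutation tests over arrays of the within-array difference. Arrays give no read depth, and their number limits the precision. All probe sets of the members were described, with the called genes of each list, Yy1 and Ucp1. Other genes (those just short of a call, flanking genes) were named after their values were seen. The members and lists were chosen with earlier results of these data known.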

Additional observations from a re-analysis of the deposited data

How the results depend on the processing

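The 4 raised genes differed in how far their calls depended on the processing. Scd3 and Fads1 were called under every alternative that could be run for them, the Elovl1 probe set 1455994_x_at in 10 of 16 and Elovl3 in 9 of 16, and no member changed direction past the threshold. Over all members 5 probe sets were called higher after quantile normalization, median centring or array weights, and 4 with a pseudocount of 16, with trend and robust options or with an added fold of at least 1.5. Leaving out 1 array gave 3 to 5 higher and 0 to 1 lower members, and 808 to 2607 higher and 699 to 2473 lower among all probe sets, against 1997 and 1619. All higher and all lower calls numbered 1267 and 1003 with the brightest probe set of each gene and 1222 and 924 with the mean over its probe sets (fewer features tested), and 751 and 917 with the added fold. Array weights gave 2823 higher and 2622 lower, and the cause was not tested. Deviations of same-numbered arrays correlated at -0.23, 0.09 and 0.24, and those of differently numbered arrays at -0.33 to 0.29. No pairing by replicate number was seen, though 3 arrays per group cannot exclude one. With the replicate number as a block, 1108 of all probe sets were higher and 1089 lower. Among the member probe sets 4 were higher and 1 was lower (Fads3 1449219_at, adjusted p = 0.0304). In that fit Elovl3 (0.0800) and Elovl1 1455994_x_at (0.0600) lost their calls and Elovl1 1425676_a_at gained one (0.0438). Dim intensities limit what can be read of Fads2 and of the size of the Scd3 change.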
